A study of Mus musculus with 16 samples.

Results

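The DNA replication and S phase genes examined here were 43 genes listed by their textbook function. They cover origin licensing, the MCM helicase and its activators, the polymerases, the sliding clamp and its loader, single-strand binding and strand joining, nucleotide synthesis, and chromatin assembly with the factor E2f1. Where a gene had several probe sets, the brightest on average over all arrays stood for it. A named probe set was found for 42 of the 43, out of 18193 genes with one on the array, and Chaf1a was not analysed here. Every one of the 42 lay above the median intensity of all probe sets on all 16 arrays, so a filter on dim genes removed none.

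Expression was measured on Affymetrix arrays in cultures of mouse spermatogonial stem cells, from which sperm production is renewed. The groups were Etv5 knockdown, Bcl6b knockdown, Pou3f1 knockdown and Negative control, with 4 arrays each, and every group had been treated for 30 h with short interfering RNA (siRNA), which in Negative control was a negative siRNA. All cultures were started from C57BL\6 mouse germ cells enriched for Thy1+ cells, and their serum-free medium held FGF2 (1 ng/ml), GDNF (20 ng/ml) and GFRα1 (150 ng/ml). The knockdowns were transient. The sources used here give neither the age of the animals nor the siRNA sequences. Nor do the labels say that replicates were grown separately, and the p-values then cover only the spread among these arrays, which may be technical.

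Chromosomes are copied once per cell cycle. The origin recognition complex, with Cdc6 and Cdt1, loads the MCM helicase onto origins, and Cdc45 and the GINS complex then switch it on. DNA polymerase alpha with primase starts each new strand, polymerases delta and epsilon extend it on the PCNA clamp, and E2F factors drive transcription of most of these genes as cells enter S phase. In spermatogonial cultures, GDNF signalling supports both self-renewal and division, and Etv5, Bcl6b and Pou3f1 encode transcription factors that respond to it.

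RefSeq promoters (GRCm38.p6, 250 bases before to 50 bases after the start site) were found for 35 of the 43 genes. An E2F spelling, searched on both strands as TTTGGCGC or TTTCGCGC, was held by 10 of these 35 (28.6%) and by 251 of 27025 genes with a promoter in the table (0.929%). The 10 were Cdt1, Lig1, Mcm3, Mcm5, Mcm6, Mcm7, Orc1, Pola1, Pole2 and Rfc3. A CCAAT box (CCAAT, both strands), the site of the factor NF-Y, was held by 23 of the 35 (65.7%) and by 41.1% of all genes. The ETS spelling CCGGAAGT was held by 6 of the 35 (17.1%) and by 4.31% of all genes, and the octamer ATGCAAAT, a POU factor spelling, by 0 of the 35 and 1.97% of all genes. These matches describe the letters of the windows and not binding. The windows shown are those of the helicase genes with a match and of Orc1 and Pola1, which carry the differences described later. They run 5′ to 3′ in the direction of transcription, and capitals mark the E2F letters. In Mcm5 and Mcm6 both spellings overlap in the longest run of capitals, on opposite strands, and Mcm6 holds a further match downstream.
Mcm3, chr1:20820263-20820562, minus strand: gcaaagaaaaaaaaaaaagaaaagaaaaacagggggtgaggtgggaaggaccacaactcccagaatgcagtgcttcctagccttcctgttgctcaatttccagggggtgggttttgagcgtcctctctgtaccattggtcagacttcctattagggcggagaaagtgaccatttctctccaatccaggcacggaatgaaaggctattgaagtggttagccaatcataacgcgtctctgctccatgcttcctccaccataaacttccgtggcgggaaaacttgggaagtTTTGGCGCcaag
Mcm5, chr8:75109259-75109558, plus strand: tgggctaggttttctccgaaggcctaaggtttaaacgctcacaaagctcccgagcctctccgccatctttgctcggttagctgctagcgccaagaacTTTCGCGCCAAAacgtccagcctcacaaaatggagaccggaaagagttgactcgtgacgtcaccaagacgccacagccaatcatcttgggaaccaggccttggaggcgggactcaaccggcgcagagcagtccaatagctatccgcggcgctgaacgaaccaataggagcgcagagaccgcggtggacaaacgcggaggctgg
Mcm6, chr1:128359656-128359955, minus strand: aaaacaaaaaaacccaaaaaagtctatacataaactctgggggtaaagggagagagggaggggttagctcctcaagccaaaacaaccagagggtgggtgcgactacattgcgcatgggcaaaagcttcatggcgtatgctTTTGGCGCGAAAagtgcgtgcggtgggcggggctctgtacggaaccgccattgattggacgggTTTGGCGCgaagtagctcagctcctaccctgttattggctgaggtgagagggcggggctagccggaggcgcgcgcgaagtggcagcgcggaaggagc
Mcm7, chr5:138171834-138172133, minus strand: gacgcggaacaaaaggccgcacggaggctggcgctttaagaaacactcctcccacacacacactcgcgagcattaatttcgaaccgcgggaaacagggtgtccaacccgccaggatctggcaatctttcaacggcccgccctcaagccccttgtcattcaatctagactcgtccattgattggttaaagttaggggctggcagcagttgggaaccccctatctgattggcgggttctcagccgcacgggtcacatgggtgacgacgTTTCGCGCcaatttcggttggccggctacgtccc
Orc1, chr4:108579204-108579503, plus strand: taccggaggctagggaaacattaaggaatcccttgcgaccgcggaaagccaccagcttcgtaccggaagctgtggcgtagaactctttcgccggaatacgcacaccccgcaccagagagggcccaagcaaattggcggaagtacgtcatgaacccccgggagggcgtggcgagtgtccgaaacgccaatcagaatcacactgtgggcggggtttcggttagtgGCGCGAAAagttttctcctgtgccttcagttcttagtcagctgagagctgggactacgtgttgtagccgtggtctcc
Pola1, chrX:93632106-93632405, minus strand: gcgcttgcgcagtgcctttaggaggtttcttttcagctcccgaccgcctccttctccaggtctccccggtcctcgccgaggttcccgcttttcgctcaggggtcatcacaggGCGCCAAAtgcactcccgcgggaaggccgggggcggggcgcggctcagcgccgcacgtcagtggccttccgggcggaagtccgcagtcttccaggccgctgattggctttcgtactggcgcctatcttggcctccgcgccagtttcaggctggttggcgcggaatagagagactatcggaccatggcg

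Each siRNA lowered its own target (limma, one fit of all 4 groups, Benjamini-Hochberg adjusted p). Etv5 read 898 to 1676 in Etv5 knockdown, against 2882 to 3072 in Negative control (log2 difference -1.49, adjusted p = 0.00115). Bcl6b read 611 to 791 in Bcl6b knockdown, against 1341 to 1526 in Negative control (-1.01, adjusted p = 1.67e-04), and Pou3f1 read 354 to 519 in Pou3f1 knockdown, against 644 to 692 in Negative control (-0.68, adjusted p = 0.00103). Bcl6b knockdown replicate 1 stood apart. Its 3′ minus 5′ log2 signal was 1.03 for Gapdh, where the other arrays lay between -0.53 and -0.45, and 3.08 for Actb, where they lay between 0.62 and 0.76. Group differences are therefore given with 16 arrays and with the 15 arrays that leave it out. Of 15 markers of undifferentiated spermatogonia, 13 had a named probe set and all 13 were bright, but so were all 12 fibroblast and feeder markers. Of other testis cells, 3 of 9 Sertoli, 3 of 4 Leydig, 2 of 5 myoid, 6 of 8 macrophage and 2 of 6 endothelial markers passed the filter on dim genes, and among those that did not were Wt1, Amh, Cyp17a1, Myh11, Adgre1 and Cdh5. In such bulk cultures, fewer cells of a type and less RNA per cell cannot be told apart.

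Most differences of the replication genes from Negative control were under 0.3 on the log2 scale in either direction, and the larger ones were in Bcl6b knockdown with replicate 1 included. With 16 arrays no member passed the test in Etv5 or Pou3f1 knockdown, and Pola1, which encodes the catalytic subunit of polymerase alpha, was lower in Bcl6b knockdown. Background counts are over the 11145 genes tested, where calls were made at adjusted p-values below 0.05. When limma weighted each array by how well it matched its group, 6, 3 and 3 members were called in Etv5, Bcl6b and Pou3f1 knockdown, where 14.9%, 18.7% and 15.6% of all genes were. The 3 comparisons share the Negative control arrays.

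**Figure D1:**
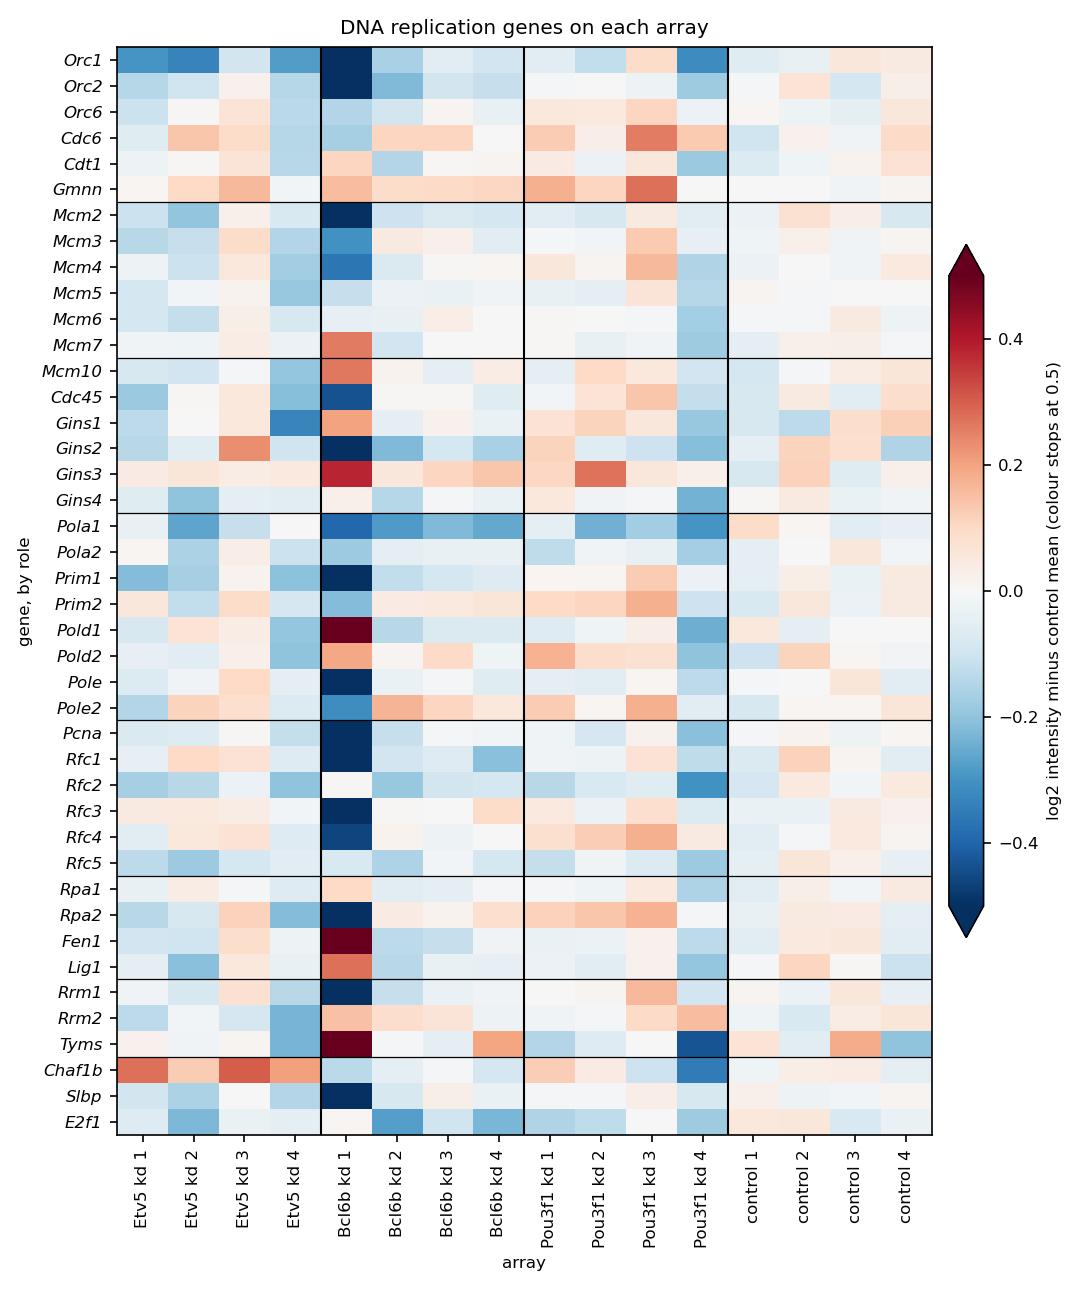
Heat map of the log2 intensity of the 42 replication genes (rows, ordered by role, lines between roles) on the 16 arrays (columns; kd, knockdown), each minus the mean of the 4 Negative control arrays; colour stops at 0.5 in either direction. Bcl6b knockdown replicate 1 has strong colour in both directions, from -3.39 to 0.82 against its own group's other arrays, and Pou3f1 knockdown replicate 4 is blue in nearly every row.

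In Etv5 knockdown, 0 of the 42 genes were called with 16 arrays, where 2.09% of all genes were. Unadjusted p was under 0.05 for 4 members (9.52%), against 11.0% of all genes, so low p-values were no more frequent among the members. Differences ran from -0.25 (Orc1) to 0.23 (Chaf1b) on the log2 scale, with a median of -0.06, against -0.03 over all genes tested. That median was -0.03 without Etv5 knockdown replicate 4 and -0.10 without replicate 3. They lay below 0 for 35 of 42 members (83.3%), against 60.5% of all genes. This lean was not particular to the members. Of the related genes described below, 27 of 32 further replication genes, 13 of 16 genes of chromatin and repair at forks and 20 of 23 mitosis genes (median -0.08) lay below 0. So did 8 of 11 nucleotide supply genes and 16 of 27 regulators of S phase entry. The 95% interval lay within 0.5 of 0 for 40 of 42 members with 16 arrays and for 42 with 15. With 15 arrays, Orc1 was called lower, where 4.94% of all genes were. The summed intensity of the 13 germ cell markers, Etv5 and Bcl6b among them, was 32593 to 34609 in Etv5 knockdown, against 36899 to 37547 in Negative control, and that of the 12 fibroblast markers was 177975 to 189134 in Etv5 knockdown, against 172973 to 175841 in Negative control. The brightest of these 12 were Col3a1 and Vim (control means 42876 and 32923). Vim alone of the 12 was called in Etv5 knockdown (adjusted p 0.00189, limma with 16 arrays). The 6 endothelial markers summed to 122 to 226 in Etv5 knockdown, against 310.0 to 338 in Negative control. The 9 Sertoli markers summed to 9449 to 10221 in Etv5 knockdown, against 8869 to 9293 in Negative control. Most of the endothelial sum was Plvap and Ramp2 (control means 249 and 48.7), and most of the Sertoli sum Dmrt1 and Rhox5 (6924 and 1757). Pecam1, Cdh5, Kdr and Tek, and Wt1, Amh, Gata4, Gata1, Cldn11 and Fshr, did not pass the filter on dim genes. The endothelial and Sertoli sums thus rest mostly on the few listed genes that passed, and do not show that these cell types were present. The part of these cell markers in the replication gene values was not tested.

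In Bcl6b knockdown, Pola1 was the only member called, and it was lower; 1.56% of all genes were called lower and 3.21% in either direction. Over all genes 184 were called higher and 174 lower, and with each array centred on its median 126 were called higher and 617 lower. Unadjusted p was under 0.05 for 8 members (19.0%), close to the 19.6% of all genes. With 16 arrays the differences ran from -0.90 (Rrm1) to 0.17 (Gins3), with a median of -0.07 against -0.01 over all genes, and 29 of 42 (69.0%) lay below 0, against 52.9% of all genes. So did 26 of 32 further replication genes, 12 of 16 genes of chromatin and repair at forks and 19 of 23 mitosis genes. Of nucleotide supply genes 8 of 11 did, and of regulators of S phase entry 18 of 27. The 95% interval lay within 0.5 of 0 for 34 of 42 members with 16 arrays and for 42 with 15. Without replicate 1 the median was -0.04, and so was that of all genes. The range then narrowed to -0.25 (Pola1) to 0.11 (Pole2), and 69.0% of members lay below 0, against 65.8% of all genes. Pola1 and E2f1 were called lower with 15 arrays, where 6.87% of all genes were. The 12 fibroblast markers summed to 176174 to 182640 in Bcl6b knockdown, against 172973 to 175841 in Negative control. Vim alone of these 12 was called there (adjusted p 0.00341, limma with 16 arrays). The 13 germ cell markers summed to 32294 to 37333 in Bcl6b knockdown, against 36899 to 37547 in Negative control. The siRNA target Bcl6b is among those 13 (611 to 791 in Bcl6b knockdown, against 1341 to 1526 in Negative control). Both sums include replicate 1, and the part of these markers in the replication gene differences was not tested.

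In Pou3f1 knockdown, 0 of the 42 were called with 16 arrays, where 2.25% of all genes were, and 0 with 15 arrays, where 11.4% were. Unadjusted p was under 0.05 for 3 members (7.14%) with 16 arrays, against 12.2% of all genes, and for 6 members (14.3%) with 15, against 26.8%. Differences ran from -0.19 (Pola1) to 0.14 (Gmnn), with a median of -0.03 (0.01 without Pou3f1 knockdown replicate 4) against -0.02 over all genes, and 24 of 42 (57.1%) lay below 0, against 59.1% of all genes. The 95% interval lay within 0.5 of 0 for 40 members with 16 arrays and for 42 with 15.

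**Figure D2:**
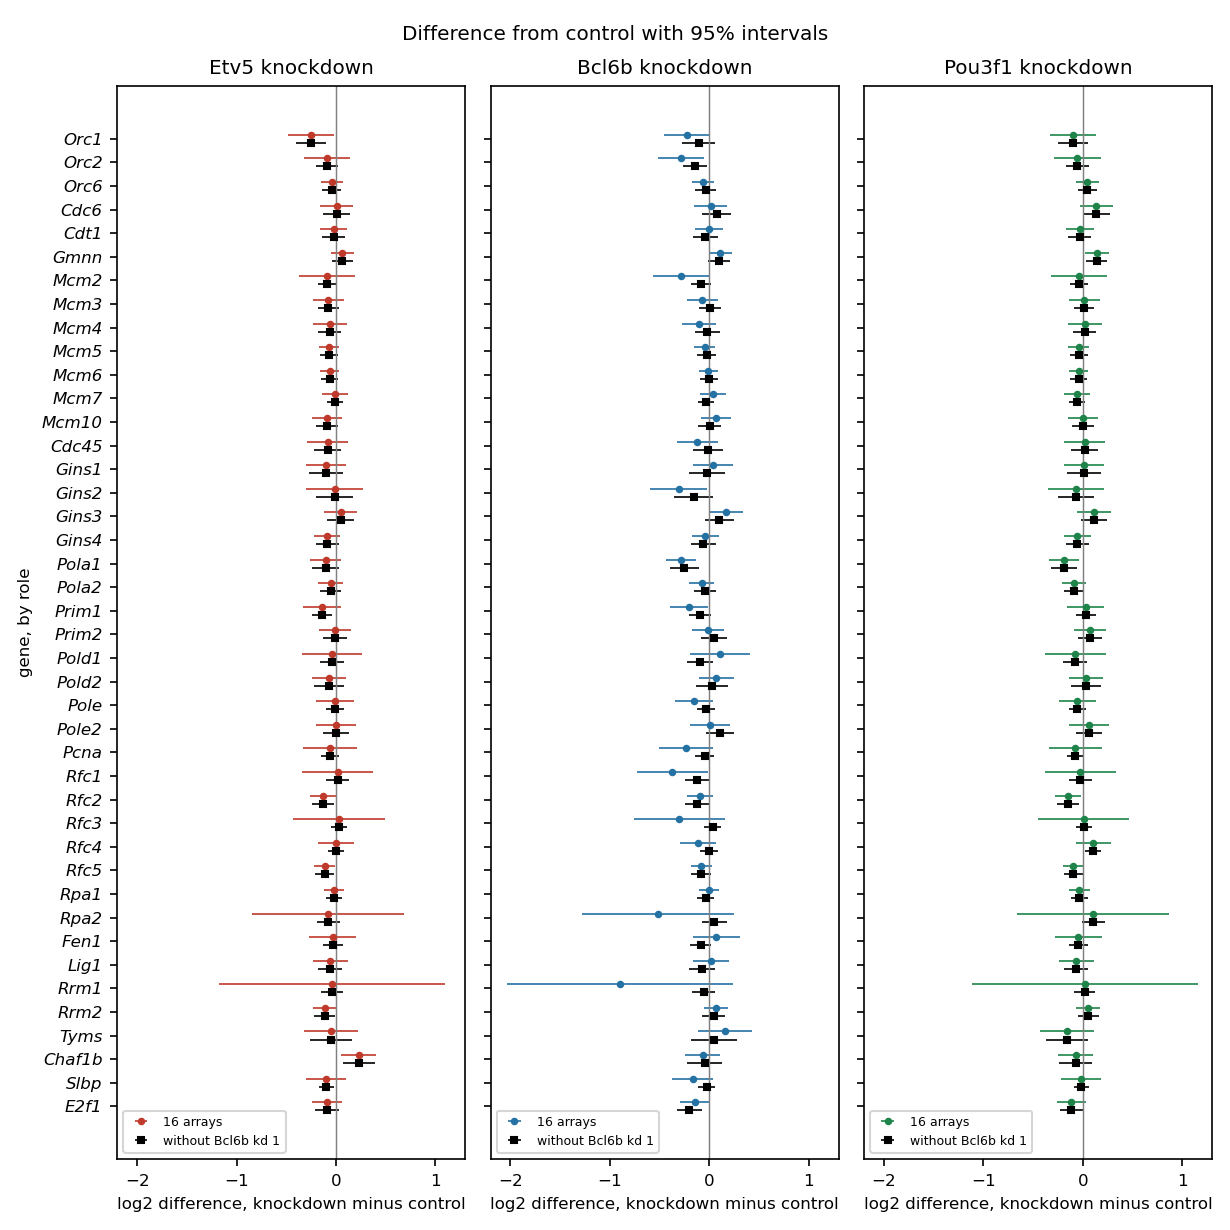
Log2 difference from Negative control of each of the 42 genes (rows, ordered by role) in Etv5, Bcl6b and Pou3f1 knockdown, with 95% intervals; coloured circles are from the fit of 16 arrays and black squares from the fit without Bcl6b knockdown replicate 1. In Bcl6b knockdown the values of Rrm1 (-0.90), Rpa2 (-0.52) and Rfc1 (-0.37) move to -0.05, 0.05 and -0.12 without that array.

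Origin recognition and licensing was represented by Orc1, Orc2 and Orc6 of the origin recognition complex, the loaders Cdc6 and Cdt1, and Gmnn, whose product geminin holds Cdt1 back after origins have fired. Orc1, the largest subunit, read 407, 396, 468 and 412 in Etv5 knockdown, 333, 446, 480.5 and 468 in Bcl6b knockdown, 482, 458, 532 and 402 in Pou3f1 knockdown, against 479, 487, 519.8 and 515 in Negative control. All 4 Etv5 knockdown arrays lay below all 4 Negative control arrays, while the other knockdowns overlapped with control. The difference in Etv5 knockdown was -0.25 ± 0.11 (SE), with an adjusted p of 0.386 by limma with 16 arrays and 0.0366 with 15. In a limma fit across all probe sets with 15 arrays its adjusted p was 0.0508, and a dimmer Orc1 probe set differed by -0.19 there (adjusted p 0.632).

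Orc2 read 464, 660.3, 722 and 710.1 in Bcl6b knockdown, against 764, 806, 724 and 784 in Negative control. The groups did not overlap, and replicate 1 was the lowest by far. Its difference was -0.29 (adjusted p 0.164, limma) with 16 arrays and -0.14 (adjusted p 0.129) with 15. Gmnn read 1776, 1893, 1973 and 1748 in Etv5 knockdown, 1963, 1881, 1885 and 1897 in Bcl6b knockdown, 1998, 1903, 2137 and 1770.0 in Pou3f1 knockdown, against 1767, 1769, 1742 and 1783 in Negative control. The 4 control values lie close together, all Bcl6b knockdown values are above them, and 3 of 4 Pou3f1 knockdown values are. Gmnn missed the test in each knockdown, with differences of 0.06, 0.11 and 0.14 in Etv5, Bcl6b and Pou3f1 knockdown (limma, adjusted p 0.807, 0.283 and 0.283). Orc6, Cdc6 and Cdt1 differed by -0.06 to 0.14 over the 3 knockdowns, with Cdc6 in Pou3f1 knockdown at the upper end.

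The MCM helicase unwinds DNA at the fork, and its subunits Mcm2 to Mcm7 differed by -0.09 to -0.01 in Etv5 knockdown, where all 6 lay below 0, and by -0.06 to 0.02 in Pou3f1 knockdown. None was called. In Bcl6b knockdown the range was -0.28 to 0.04 with 16 arrays and -0.09 to 0.01 with 15. Mcm2, at the lower end of both ranges, read 2090.5, 3569, 3645 and 3612 in Bcl6b knockdown, against 3753, 4048, 3922 and 3629 in Negative control. Only replicate 1 was far from the rest. Mcm5 read 13101, 13783, 14071 and 12202 in Etv5 knockdown, 12864, 13645, 13584 and 13759 in Bcl6b knockdown, 13548, 13487, 14547 and 12603 in Pou3f1 knockdown, against 14053, 13825, 13887 and 13900.4 in Negative control. Its Bcl6b knockdown arrays all lay below the control arrays, with a difference of -0.03 with 15 arrays (adjusted p 0.757, limma).

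Helicase activation was represented by Cdc45, the GINS subunits Gins1 to Gins4, and Mcm10, which helps the helicase start. In Etv5 knockdown the 6 genes differed by -0.10 to 0.05 and in Pou3f1 knockdown by -0.07 to 0.11, and none was called. Gins2 read 119, 174, 191 and 182 in Bcl6b knockdown, against 197, 219.9, 216 and 184 in Negative control, a difference of -0.31 (adjusted p 0.216, limma) with 16 arrays and -0.16 (adjusted p 0.303) with 15. The arrays of the groups overlapped. Gins4 read 1330.5, 1207, 1345 and 1339.8 in Etv5 knockdown, against 1394, 1432, 1355 and 1372 in Negative control, with no overlap and a difference of -0.09 (adjusted p 0.707).

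Among the polymerases and primase, Pola1 carried the only call. It read 465, 398, 440.3 and 477 in Etv5 knockdown, 364, 392, 409 and 399 in Bcl6b knockdown, 462, 404, 423 and 389 in Pou3f1 knockdown, against 508, 480.0, 458 and 463 in Negative control. All Bcl6b knockdown arrays lay below all control arrays, 3 of 4 Pou3f1 knockdown arrays did, and 2 of 4 Etv5 knockdown arrays did. Pola1 fell to 391 ± 19.6 in Bcl6b knockdown, against 478 ± 22.5 in Negative control (SD, n = 4 each), a log2 difference of -0.29 ± 0.07 (SE) with a 95% interval of -0.44 to -0.13 and an adjusted p of 0.0407 by limma. Without replicate 1 it was -0.25, with an adjusted p of 0.0242. The call was lost when any of 10 of the 16 arrays was left out (Etv5 knockdown 1 or 3, Bcl6b knockdown 2 or 4, Pou3f1 knockdown 2 or 3, or any Negative control array), with an adjusted p of 0.0551 to 0.134. Pola1 stayed below control in all 16 such fits. In Pou3f1 knockdown Pola1 differed by -0.19 (adjusted p 0.263) and in Etv5 knockdown by -0.10 (adjusted p 0.707).

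Prim1, the catalytic primase subunit, read 1717, 1776, 2018 and 1727 in Etv5 knockdown, 1369, 1832, 1876 and 1905 in Bcl6b knockdown, 2008, 2005, 2177 and 1956 in Pou3f1 knockdown, against 1935, 2037, 1949.7 and 2055 in Negative control. In Etv5 knockdown 3 of 4 arrays lay below the control arrays and replicate 3 lay among them. It missed the test against control in each knockdown, at -0.14, -0.20 and 0.03 in Etv5, Bcl6b and Pou3f1 knockdown with 16 arrays. A second Prim1 probe set was called in Etv5 knockdown with 15 arrays in the fit across probe sets (-0.19, adjusted p 0.0293, limma). The share of all probe sets called there is not given here, and 9.52% of all genes were called in the fit of genes. All 8 genes of the role lay below 0 in Etv5 knockdown, the lowest at -0.14, and 4 of 8 did in Pou3f1 knockdown. Pold1, the catalytic subunit of polymerase delta, read 6203, 3417, 3577 and 3577 in Bcl6b knockdown, against 3895, 3646, 3752 and 3751 in Negative control, so that its difference was 0.11 with 16 arrays and -0.09 with 15.

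The clamp Pcna and the loader genes Rfc1 to Rfc5 were all below 0 in Bcl6b knockdown with 16 arrays, from -0.37 (Rfc1) to -0.08 (Rfc5), and from -0.12 to 0.03 with 15 arrays. With the probe sets used here, none was called in any knockdown with 16 or 15 arrays. Rfc2 differed by -0.13, -0.09 and -0.14 and Rfc5 by -0.11, -0.08 and -0.10 in Etv5, Bcl6b and Pou3f1 knockdown. Rfc5 read 1229, 1187, 1268 and 1295 in Etv5 knockdown, against 1306, 1403, 1371 and 1307 in Negative control, with no overlap (adjusted p 0.395, limma). Rfc1, the large subunit of the loader, has 3 probe sets, and the one used here differed by -0.12 (adjusted p 0.181) in Bcl6b knockdown without replicate 1. The other 2 were called lower there in the limma fit across probe sets (-0.33 and -0.30, adjusted p 0.00137 and 0.0370). A dimmer Rfc2 probe set was called lower in that fit too (-0.19, adjusted p 0.0413), while the Rfc2 probe set used here differed by -0.12 (adjusted p 0.175). The share of all probe sets called in that fit is not given here. In the fit of genes with 15 arrays, 10.9% of all genes were called in Bcl6b knockdown. Pcna read 10624, 17062, 18431 and 18296 in Bcl6b knockdown, against 18425, 18734, 18170.1 and 18631 in Negative control. Its difference of -0.23 with 16 arrays was -0.05 with 15.

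Rpa1 and Rpa2 encode subunits of the single-strand binding protein, Fen1 trims the ends of lagging-strand fragments and Lig1 joins them. None was called, and their differences in Etv5 and Pou3f1 knockdown lay between -0.08 and 0.11. In Bcl6b knockdown they lay between -0.52 and 0.07 with 16 arrays and between -0.09 and 0.05 with 15. Rpa2 read 941, 4521, 4437 and 4651 in Bcl6b knockdown, against 4274, 4525, 4509.9 and 4253 in Negative control. Replicate 1 was low and the other replicates overlapped with control.

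Nucleotide synthesis was represented by Rrm1 and Rrm2, the subunits of ribonucleotide reductase, and Tyms, thymidylate synthase. Rrm2, the subunit whose level peaks in S phase, read 3101, 3359, 3198 and 2886 in Etv5 knockdown, 3759, 3602, 3546 and 3337 in Bcl6b knockdown, 3348, 3369, 3629 and 3774 in Pou3f1 knockdown, against 3342, 3221, 3478 and 3536 in Negative control. In Etv5 knockdown 3 of 4 values lay below all control values, and in Bcl6b knockdown 3 of 4 lay above them. Against control its differences were -0.12, 0.07 and 0.06 in Etv5, Bcl6b and Pou3f1 knockdown, and none passed the test. Rrm1 read 384, 3868, 4098 and 4141 in Bcl6b knockdown, against 4233, 4104, 4354 and 4074 in Negative control, and its difference was -0.90 with 16 arrays and -0.05 with 15. Tyms read 118, 125, 131 and 96.6 in Pou3f1 knockdown, against 137, 126, 149 and 113 in Negative control, and differed by -0.16 (adjusted p 0.72, limma).

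Chaf1b, a subunit of the chromatin assembly factor that places histones behind the fork, read 494, 446, 504 and 471 in Etv5 knockdown, 372, 396, 406 and 385 in Bcl6b knockdown, 445, 420.3, 380.3 and 320.4 in Pou3f1 knockdown, against 403, 417, 419 and 394 in Negative control. It was the member with the highest difference in Etv5 knockdown, and all 4 of those arrays lay above every array of the other groups. Against control the difference was 0.23 ± 0.08 (SE; limma, adjusted p 0.26 with 16 arrays and 0.0692 with 15). E2f1, an activator of S phase genes, read 719, 644, 736 and 730.2 in Etv5 knockdown, 757, 621, 701 and 643 in Bcl6b knockdown, 678, 689.6, 752 and 665 in Pou3f1 knockdown, against 779.6, 783, 713 and 736 in Negative control. Replicates 2 to 4 of Bcl6b knockdown lay below all control arrays and replicate 1 lay among them. In Bcl6b knockdown it differed by -0.15 with 16 arrays (adjusted p 0.255, limma) and by -0.20 with 15 (adjusted p 0.042). In the limma fit across all probe sets with 15 arrays its adjusted p was 0.0394, and a dimmer E2f1 probe set differed by -0.06 there (adjusted p 0.571). Slbp, which binds the stem-loop of histone mRNAs, differed by -0.10, -0.17 and -0.02 in Etv5, Bcl6b and Pou3f1 knockdown.

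**Figure D3:**
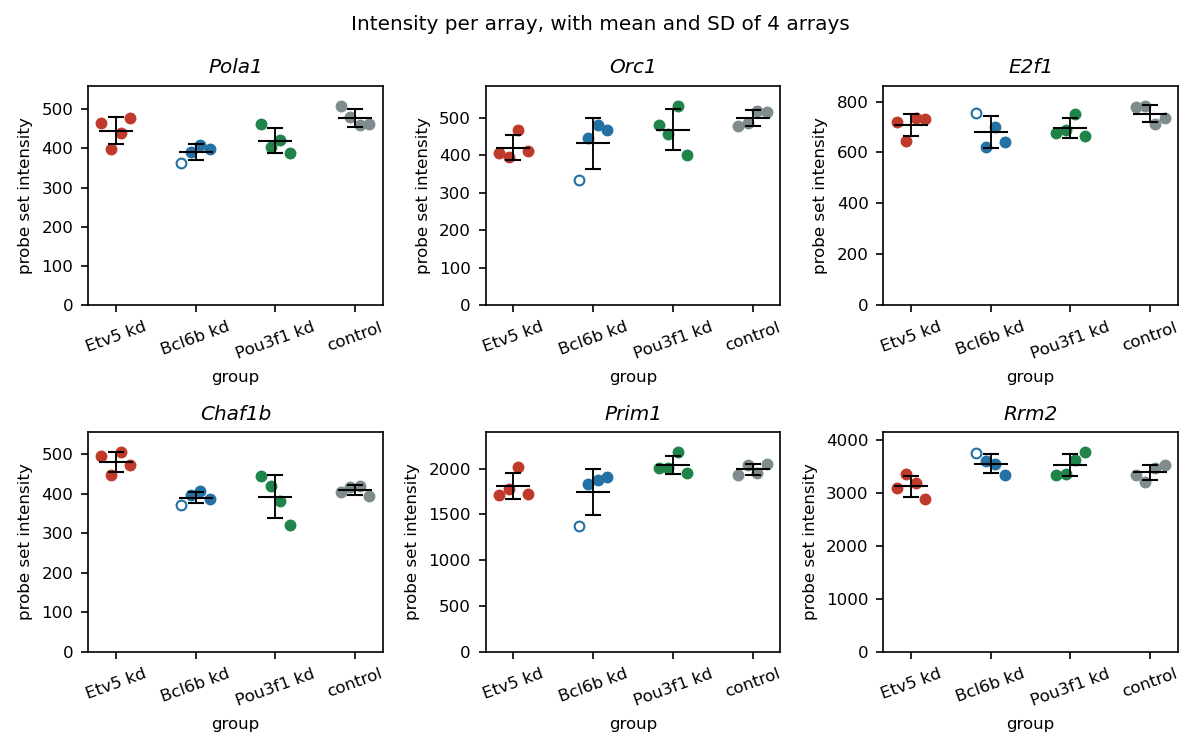
Probe set intensity (linear axis from 0) of Pola1, Orc1, E2f1, Chaf1b, Prim1 and Rrm2 on each array of Etv5, Bcl6b and Pou3f1 knockdown (kd) and Negative control; bars are the mean and SD of 4 arrays, and the open circle is Bcl6b knockdown replicate 1. Pola1 is below all control arrays in Bcl6b knockdown, and Chaf1b is above all other arrays in Etv5 knockdown.

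With 16 arrays, few members had arrays that did not overlap with those of control. Orc1, Gins4 and Rfc5 lay wholly below control and Chaf1b wholly above it in Etv5 knockdown. Of all genes, 10.4% lay wholly below and 6.90% wholly above there. In Bcl6b knockdown Orc2, Mcm5, Pola1 and Prim1 lay below and Gmnn above, where 9.46% and 5.25% of all genes did. In Pou3f1 knockdown 0 members did, where 11.7% and 6.40% of all genes did. Without Bcl6b knockdown replicate 1, 7 of the 42 members lay wholly below control and 1 wholly above it in Bcl6b knockdown. Fewer arrays then need to lie apart, and the share of all genes is not given for that setting.

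Between knockdowns, 0 of 42 members were called with 16 arrays in each of the 3 comparisons, where 1.49% of all genes were called for Etv5 against Bcl6b knockdown, 1.44% for Etv5 against Pou3f1 and 2.18% for Bcl6b against Pou3f1. Unadjusted p was under 0.05 for 6, 2 and 4 members in that order, or 14.3%, 4.76% and 9.52%, against 14.3%, 9.04% and 15.6% of all genes. With 15 arrays, 3 members were called for Etv5 against Pou3f1 knockdown, where 6.36% of all genes were; they were named after their values were seen. Chaf1b was higher in Etv5 than in Pou3f1 knockdown (0.30, adjusted p 0.026, limma), and Prim1 (-0.17, adjusted p 0.0418) and Rrm2 (-0.17, adjusted p 0.0468) were lower. Of these 3, Chaf1b alone had arrays that did not overlap between the groups. The other comparisons between knockdowns had 0 members called with 15 arrays, where 4.50% of all genes were for Etv5 against Bcl6b and 5.11% for Bcl6b against Pou3f1.

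Most members were low on 1 array of Pou3f1 knockdown, while in Etv5 knockdown the median of the members was low on every array but replicate 3. The median over the 42 genes, relative to the Negative control mean, was -0.07, -0.06, 0.04 and -0.11 on the Etv5 knockdown arrays, -0.16, -0.06, -0.01 and -0.03 on the Bcl6b knockdown arrays and -0.01, -0.01, 0.06 and -0.15 on the Pou3f1 knockdown arrays, against -0.04, 0.02, 0.01 and 0.01 on the control arrays. Replicate 4 was thus the lowest array and replicate 3 the highest in Etv5 and in Pou3f1 knockdown. Pou3f1 knockdown replicate 4 was the lowest of its group for 39 of the 42 members, against 41.9% of all genes. It lay below the mean of its group's other arrays for 41 of 42 members, against 62.9% of all genes, by a median of -0.16 against -0.04. On that array 27 of 32 further replication genes, 8 of 11 nucleotide supply genes, 14 of 16 genes of chromatin and repair at forks and 21 of 23 mitosis genes also lay below the mean of the other arrays. So did 17 of 27 regulators of S phase entry, whose median of -0.04 was that of all genes. Etv5 knockdown replicate 4 was the lowest of its group for 24 of 42 members, against 29.8% of all genes, and replicate 3 was the highest for 31 of 42, against 32.1% of all genes. Pou3f1 knockdown replicate 3 was the highest of its group for 28 of 42 members, against 19.3% of all genes. Members moved apart on Bcl6b knockdown replicate 1. It was the lowest of its group for 25 of 42 members, against 33.4% of all genes, and the highest for 16 of 42, against 54.1%. In Negative control the lowest array was replicate 1 for 19 of 42 members, against 29.8% of all genes, and the other replicates were the lowest for 6 to 10.

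**Figure D4:**
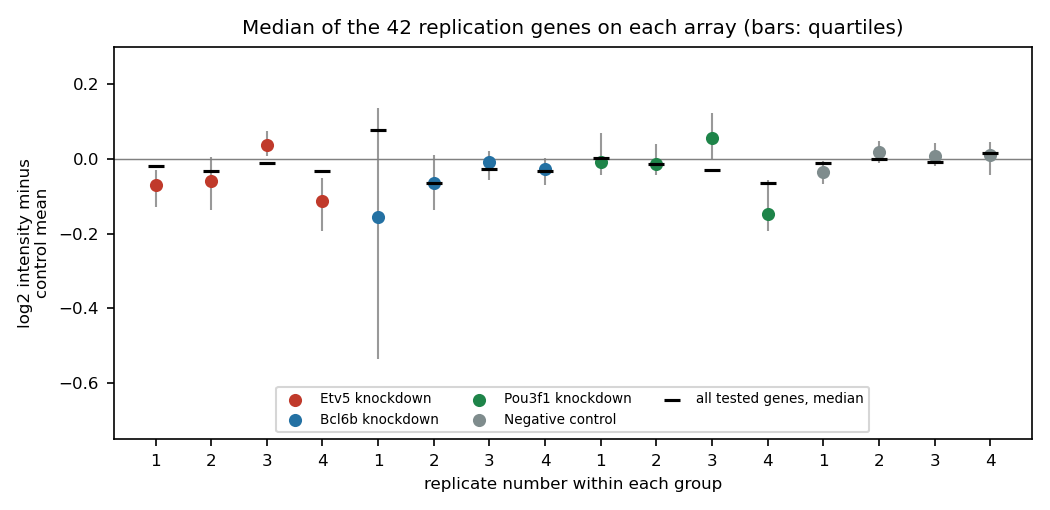
Median log2 intensity of the 42 replication genes on each array relative to the Negative control mean (coloured points, bars from the lower to the upper quartile), with the median of all tested genes as black dashes; arrays are grouped by Etv5, Bcl6b and Pou3f1 knockdown and Negative control, numbered by replicate. Pou3f1 knockdown replicate 4 (-0.15) and Etv5 knockdown replicate 4 (-0.11) are low, and Bcl6b knockdown replicate 1 has the widest bar.

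On Bcl6b knockdown replicate 1 the members lay between -3.39 (Rrm1) and 0.82 (Pold1) of the mean of replicates 2 to 4, with a median of -0.12, against 0.12 over all genes. Probe sets of the same gene disagreed there. The Rrm1 probe set used here read 384 on replicate 1 and 3868 to 4141 on replicates 2 to 4, while a second one read 2481 and 2837 to 2991. The Rpa2 probe set used here read 941 on replicate 1 and 4437 to 4651 on replicates 2 to 4, while a second one read 3364 and 3021 to 3329. For the 29 members with more than 1 tested probe set, the median spread between probe sets on this array was 0.91 on the log2 scale, and on the arrays of other groups it was at most 0.15. In 21 of the 29 genes the probe sets moved in opposite directions.

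**Figure D5:**
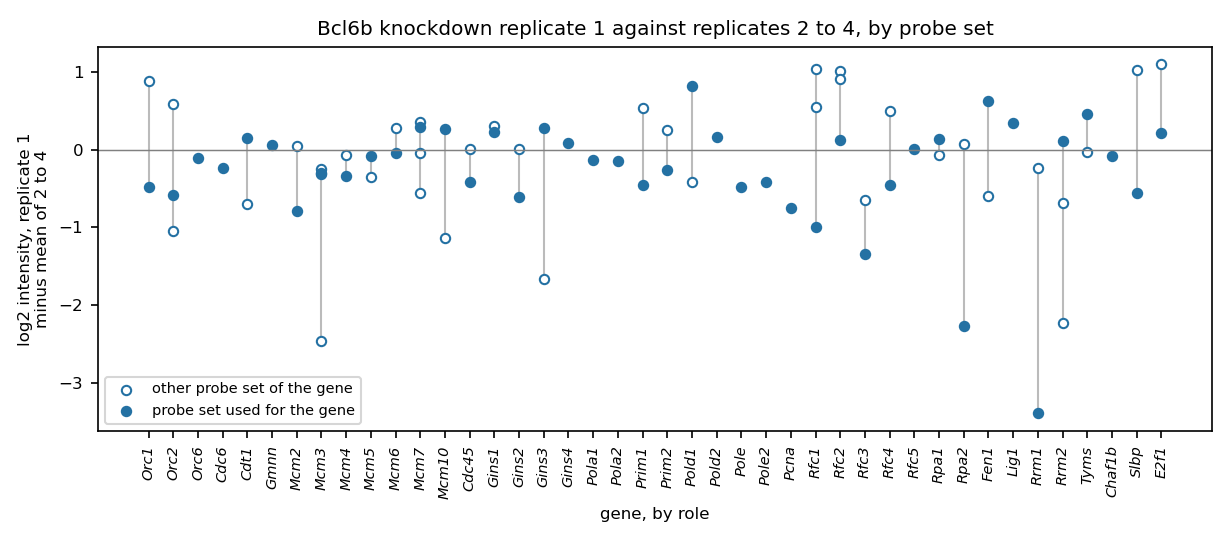
Log2 intensity on Bcl6b knockdown replicate 1 minus the mean of replicates 2 to 4, for every tested probe set of each member (columns, ordered by role; filled, the probe set used; open, other probe sets; grey lines join probe sets of a gene). Probe sets of 21 of 29 genes lie on both sides of 0, and Rrm1 reaches -3.39.

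Of related genes, 32 further replication genes were all tested. Dna2, a helicase and nuclease of lagging strands, was lower in Etv5 knockdown (-0.26, adjusted p 0.0389, limma), and Top1, the topoisomerase that relaxes DNA ahead of forks, was lower in Pou3f1 knockdown (-0.19, adjusted p 0.0354). No other gene of this list was called against Negative control with 16 arrays, where 2.09%, 3.21% and 2.25% of all genes were called in Etv5, Bcl6b and Pou3f1 knockdown. Their median differences were -0.07, -0.06 and -0.02 in Etv5, Bcl6b and Pou3f1 knockdown. With 15 arrays, 3, 0 and 3 of the 32 were called lower and 0 higher in Etv5, Bcl6b and Pou3f1 knockdown, where 9.52%, 10.9% and 11.4% of all genes were called in either direction. Beside Dna2 and Top1, Dbf4, the activator of the kinase Cdc7, was lower in Etv5 (-0.15, adjusted p 0.00503, limma) and Pou3f1 knockdown (-0.11, adjusted p 0.0286). Clspn was lower in Etv5 knockdown (-0.17) and Timeless in Pou3f1 knockdown (-0.20). None of 11 nucleotide supply genes, 16 genes of chromatin and repair at forks or 23 mitosis genes was called against Negative control with 16 arrays. With 15 arrays, Nme1, a nucleoside diphosphate kinase, was lower in Bcl6b knockdown (-0.13, adjusted p 0.0127, limma) and in Pou3f1 knockdown (-0.12, adjusted p 0.0139). Uhrf1, a factor for maintenance methylation of DNA, and Hells, a chromatin remodeller, were lower in Etv5 knockdown (-0.18 and -0.12, adjusted p 0.0486 and 0.0209), and the mitotic kinase gene Ttk was higher in Pou3f1 knockdown (0.22, adjusted p 0.0264). No other gene of these 3 lists was called against Negative control with 15 arrays.

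Among 27 regulators of S phase entry, Ccnd1, which encodes cyclin D1, was lower in Etv5 (-0.34, adjusted p 0.00197), Bcl6b (-0.59, adjusted p 1.57e-05) and Pou3f1 knockdown (-0.35, adjusted p 0.00158), and Cdk6, its kinase partner, was higher in Bcl6b knockdown (0.47, adjusted p 0.0122, limma). No other gene of the list was called against Negative control with 16 arrays. With 15 arrays, 1 of the 27 was called higher and 5 lower in Etv5 knockdown, 1 and 2 in Bcl6b knockdown and 3 and 6 in Pou3f1 knockdown. The shares called of all genes are those given for the further replication genes. Tfdp1, a partner of E2F factors, was lower and Tfdp2, another, was higher in Etv5 knockdown (-0.15 and 0.37) and in Pou3f1 knockdown (-0.13 and 0.25). The cell cycle inhibitor gene Cdkn1a was lower in both (-0.19 and -0.23), and so was Ccnd3, which encodes cyclin D3 (-0.20 and -0.20). Beside these, Ccnd1 and Cdk6, the genes called with 15 arrays were Ccne1, lower in Etv5 knockdown, and Cdk4, lower in Bcl6b knockdown. In Pou3f1 knockdown they were Rb1 and Ccne2, higher, and Ccnd2 and Myc, lower.

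The 10 members with an E2F match in their promoter window had a median difference of -0.06, -0.03 and -0.04 in Etv5, Bcl6b and Pou3f1 knockdown with 16 arrays. For the 24 tested members with a window and no such match it was -0.06, -0.08 and -0.02. Without Bcl6b knockdown replicate 1 the Bcl6b knockdown medians were -0.03 with a match and -0.04 without.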

How the data were processed

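Per the labels' protocols, RNA for the 16 arrays was extracted with Trizol, treated with DNase and reverse transcribed from a poly(T) primer for 1-colour Affymetrix arrays. The values the authors deposited are linear intensity values, 1 per probe set and array, from 1.66 to 71511. Affymetrix Expression Console 1.1, MAS5, GCRMA and Partek 6.4 appear in the submitters' processing notes, and the step that gave the values is not given there. Array medians ran from 15.6 to 17.1.

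Of 45037 probe sets other than controls, 34945 had 1 gene in the platform annotation, 932 several and 9160 none, and those with several or none were not named. The probe set brightest on average stood for a gene, as log2(intensity + 1), so that differences of dim genes are understated. Genes above the array's own median on at least 4 arrays were tested, which left 11145 of 18193. Groups were compared in 1 fit of all 4 groups with limma 3.58.1 in R 4.3.3 (lmFit, eBayes with trend, two-sided, Benjamini-Hochberg over all tested genes). Precision is limited by the number of arrays. The procedure was tested on simulated data with independent noise and no deviating array. The changes planted there were larger than most differences of the members, so the test does not cover differences as small as these. Promoters came from RefSeq (GRCm38.p6), and figures were drawn with matplotlib 3.10.9.

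The members and the other gene lists were chosen with earlier results of these data known. Values per array were given for members called in any comparison with 16 arrays, those called against Negative control without Bcl6b knockdown replicate 1, and the 2 with the smallest p in each comparison with Negative control. Those of other members were chosen after their values were seen. Of the other lists, the plan was to name up to 3 called genes per list and knockdown. More regulators of S phase entry were named, after their values were seen. The alternatives were leaving out each array, a replicate block, array weights, only the groups compared, the mean over probe sets, no filter, a pseudocount of 16, quantile normalization and median centring.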

Additional observations from a re-analysis of the deposited data

Results flagged for a closer look

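Single arrays lay far from the other arrays of their group for 21 of the 172 sets of 4 values examined (42 genes and their median, each in 4 groups), where chance alone gives about 1 in 20. The measure is the gap to the nearest array divided by the range of the group. Bcl6b knockdown replicate 1 accounts for 14 of them. It was low for Mcm2 (0.962), Cdc45 (0.847), Pola2 (0.911), Prim1 (0.881), Prim2 (0.938), Pole (0.895), Pcna (0.86), Rfc1 (0.862), Rfc3 (0.937), Rfc4 (0.912), Rpa2 (0.97) and Rrm1 (0.971), and high for Pold1 (0.923) and Fen1 (0.832). Without that array, Bcl6b knockdown differed from Negative control by -0.02 for Cdc45, -0.04 for Pola2, -0.09 for Prim1 and 0.05 for Prim2. The difference was -0.03 for Pole, 0.03 for Rfc3, -0.0014 for Rfc4 and -0.09 for Fen1. Values without it for the other flagged genes stand beside the Bcl6b knockdown results.

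In Etv5 knockdown, replicate 3 was high for Mcm3 (0.87) and Mcm7 (0.84), replicate 2 was low for Gins4 (0.898) and E2f1 (0.8291), and replicate 4 was low for Tyms (0.835). In Pou3f1 knockdown, replicate 4 was low for Orc2 (0.86) and Mcm6 (0.944). Mcm6 read 8254, 8236, 8199 and 7322 there, against 8163, 8181, 8496 and 8077 in Negative control. No set of Negative control values was marked.

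Between knockdowns, 3 genes differed in the fit of 15 arrays with limma: Prim1 by -0.172, Rrm2 by -0.171 and Chaf1b by 0.3, each as Etv5 minus Pou3f1 knockdown. None of these passed with 16 arrays.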

How the results depend on the processing

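The number of replication genes called depended on the arrays and weights used, while the median differences of the set kept their direction against Negative control in all settings but one. With each array left out in turn, the members called ranged from 0 to 1 in Etv5 knockdown against Negative control, from 0 to 2 in Bcl6b knockdown, and stayed at 0 in Pou3f1 knockdown. Between knockdowns they ranged from 0 to 1 for Etv5 against Bcl6b, from 0 to 3 for Etv5 against Pou3f1, and stayed at 0 for Bcl6b against Pou3f1. Calls gained this way were those without Bcl6b knockdown replicate 1 (Orc1, E2f1, Prim1, Rrm2 and Chaf1b, described above), and Chaf1b, which was called higher in Etv5 than in Bcl6b knockdown without Pou3f1 knockdown replicate 4 (0.30, adjusted p 0.0300) and higher in Etv5 than in Pou3f1 knockdown without Pou3f1 knockdown replicate 1 (0.36, adjusted p 0.0495). The median member difference ranged from -0.10 to -0.03 in Etv5 knockdown, from -0.09 to -0.04 in Bcl6b knockdown and from -0.05 to 0.01 in Pou3f1 knockdown.

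With array weights, which were 0.0288 for Bcl6b knockdown replicate 1 and 0.436 for Pou3f1 knockdown replicate 4, 6 members were called in Etv5 knockdown (Orc1, Prim1, Rfc2, Rrm2, Slbp and, higher, Chaf1b), 3 in Bcl6b knockdown (Pola1, Rfc1 and E2f1) and 3 in Pou3f1 knockdown (Pola1 and, higher, Gmnn and Rfc4). The same setting called 2 members for Etv5 against Bcl6b knockdown and 4 for Etv5 against Pou3f1 knockdown, where 9.26% and 8.56% of all genes were called. With only the arrays of the groups compared, 2 members were called in Etv5 knockdown (Orc1 and Chaf1b, adjusted p 0.0266 and 0.0214), where 8.94% of all genes were, and 0 in Bcl6b knockdown, where 0.556% were. Pola1 had an adjusted p of 0.136 there. The 1 call in Bcl6b knockdown also became 0 without the filter on dim genes (Pola1 adjusted p 0.0614) and with the mean over probe sets, which adds a dim Pola1 probe set (-0.14, adjusted p 0.0641). Pola1 kept its call with median centring (126 genes called higher and 617 lower in Bcl6b knockdown, against 184 and 174 without it), quantile normalization and a pseudocount of 16. The mean over probe sets reversed E2f1 in Bcl6b knockdown, to 0.0236, and its second probe set read 589 on replicate 1, against 265 to 281 on replicates 2 to 4. Median centring moved the median member difference in Bcl6b knockdown to -0.13, and the median over all genes to -0.07. Members below 0 then numbered 36, 34 and 24 in Etv5, Bcl6b and Pou3f1 knockdown, and 32, 25 and 24 with quantile normalization.

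Over all tested genes, 5 of 24 pairs of same-numbered arrays had a correlation of their deviations over 0.1 (-0.26 to 0.20). An array matched its own number best in 9 of 24. For the members, replicate 3 had the highest median in each knockdown (0.04, -0.01 and 0.06 in Etv5, Bcl6b and Pou3f1 knockdown), while in Negative control replicate 2 had (0.02). Whether same-numbered arrays shared a batch was not tested. With a replicate block 0 members were called in Bcl6b knockdown (Pola1 adjusted p 0.0677), and the block changed no other count of members called. With 4 arrays per group, differences well under 0.5 on the log2 scale may go uncalled.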
